A study of Mus musculus with 40 samples.

Results

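The 10 genes followed here are those of the programmed death (PD)-1 axis and of other inhibitory checkpoints, chosen by their symbols: the receptor gene Pdcd1, the ligand genes Cd274, Pdcd1lg2 and Lgals9, the further receptor genes Havcr2, Lag3, Tigit, Btla and Vsir, and the transcription factor gene Tox. All 10 were found among the 14318 genes that RNA-sequencing had measured in 39 primary tumors. The tumors came from wild-type (WT) female BALB/c mice that had been mated at 8 weeks (w) of age and that received luciferase-expressing 4T1 or 66cl4 mouse mammary carcinoma cells, models for triple-negative breast cancer (TNBC), through the teat of the third mammary gland pair while lactating. Mice were left untreated, or were given 1 mg of chitin particles, 200 µg of an anti-PD-1 antibody (clone RMP1-14, mIgG1e3) or both by intraperitoneal injection during the last 2 w before the tumors were removed at 5 w post-inoculation (p.i.). The 8 groups held 5 tumors each, except that tumor 3 of the untreated 4T1 mice was not analysed here, which left tumors 1, 2, 4 and 5. Untreated mice were the comparison for the antibody, and no group of the RNA-sequencing carries an isotype antibody in its label. Each model rests on 1 tumor cell line in immunocompetent mice, and the tumors were sequenced whole, so that reads of tumor cells, immune cells and mammary tissue are added together.

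PD-1 is a brake on activated T cells. When it binds its ligands PD-L1 (Cd274) or PD-L2 (Pdcd1lg2) on tumor or myeloid cells, the phosphatases it recruits dampen signalling from the T cell receptor, and interferon (IFN)-γ is known to raise PD-L1. TIM-3 (Havcr2), LAG-3, TIGIT and BTLA are further inhibitory receptors, which are often found with PD-1 on T cells after prolonged stimulation, the state called exhaustion that TOX helps to establish. Galectin-9 (Lgals9) is a ligand of TIM-3, and VISTA (Vsir) is an inhibitory molecule carried mainly by myeloid cells.

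The genes lie on several chromosomes of the mm10 genome, with coordinates from the RefSeq annotation of GRCm38.p6. Cd274 (chr19:29362107-29388095, plus strand) and Pdcd1lg2 (chr19:29410919-29472927, plus strand) are neighbours, while Pdcd1 lies at chr1:94038305-94052553 (minus strand). Tigit (chr16:43626137-43665125, minus strand) and Btla (chr16:45223705-45252895, plus strand) share a chromosome, as do Havcr2 (chr11:46454931-46481255, plus strand) and Lgals9 (chr11:78962979-78984924, minus strand). Lag3 lies at chr6:124904359-124912434 (minus strand), Tox at chr4:6686353-6991557 (minus strand) and Vsir at chr10:60346851-60430294 (plus strand). All are protein-coding genes.

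The promoters of the 2 ligand genes that differ in how far they separate the models are shown because results below turn on their levels and on genes of the interferon response. Both runs are the 250 bases before the start that the RefSeq promoter table gives, read 5′ to 3′ on the gene's strand, at chr19:29367188-29367437 (plus strand) for Cd274 and chr11:78984925-78985174 (minus strand) for Lgals9. The start used for Cd274 lies 5331 bases inside the gene's RefSeq span, so that this window precedes an internal start and overlaps the span of the neighbouring gene Plgrkt, whereas that of Lgals9 is the outer end of its span. Capitals mark a match to the core of the interferon-stimulated response element (ISRE), GAAA and GAAA with 2 bases between them, here on the other strand.
Cd274: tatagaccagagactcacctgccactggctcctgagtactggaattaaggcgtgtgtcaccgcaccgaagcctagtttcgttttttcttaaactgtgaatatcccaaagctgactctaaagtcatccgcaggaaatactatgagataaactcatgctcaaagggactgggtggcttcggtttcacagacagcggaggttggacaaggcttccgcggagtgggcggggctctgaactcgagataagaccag
Lgals9: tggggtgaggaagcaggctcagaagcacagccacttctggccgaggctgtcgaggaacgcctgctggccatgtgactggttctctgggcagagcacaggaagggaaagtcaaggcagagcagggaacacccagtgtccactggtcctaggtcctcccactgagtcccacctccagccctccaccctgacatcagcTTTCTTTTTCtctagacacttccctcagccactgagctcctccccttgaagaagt
The table held promoters of 8 of the 10 genes. In windows of 300 bases (250 before and 50 after the start), searched on both strands, this ISRE core was found in 1 of these 8, Lgals9, beginning at positions -55 and 16 from the start, and in 3.44% of all 32851 promoters. The gamma-activated site, TTC and GAA with 3 bases between them, was found in 0 of the 8 and in 8.3% of all promoters. These are matches of letters in a window only.

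Each tumor had between 5105898 and 14800352 reads in the listed genes, with a median of 6590274. Depth differed between the groups. In 66cl4, mean reads were 10361555 after chitin and 9441593 after the combination, beside 6494264 untreated and 6399535 after anti-PD-1. In 4T1, they were 9584491, 7288530, 6607301 and 7375735 in the same order. Chitin and depth thus went together in 66cl4 tumors, and in 4T1 for chitin alone. The deposited values had been variance-stabilized (VST), a log2-like scale on which genes with few reads are compressed, so that a difference on it understates their fold change. Levels are therefore given as normalized counts, which are the reads recovered from the VST values after scaling for the depth of each tumor, while differences and tests are on the VST scale. A gene was called when its p-value from limma, adjusted over all 14318 genes, was below 0.05. The labels give no batch, and whether tumors of both models were processed together is not given in the sources used here, so that model and batch cannot be told apart. All 8 T cell markers examined were measured, as was Ptprc, the gene of the pan-leukocyte protein CD45, which ranged over both models from 540 to 2183 normalized counts. Of the epithelial markers, Epcam averaged between 4803 and 8292 normalized counts in the 4T1 groups and between 18.8 and 56.8 in the 66cl4 groups, where Cdh1 also stayed between 40.6 and 57.0 and Krt8 between 3968 and 4752.

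Per kilobase of exon, the ligand gene Lgals9 and the myeloid receptor gene Vsir were the most abundant of the 10 genes in both models. In 4T1 tumors, the mean normalized count per kilobase was 549 ± 110 (SD, n = 19) for Lgals9, 264 ± 74.9 for Vsir and 156 ± 85.2 for Cd274. Next in order were Tigit with 109 ± 52.9, Pdcd1 with 58.9 ± 36.8, Havcr2 with 55.0 ± 16.9, Lag3 with 52.1 ± 26.7 and Pdcd1lg2 with 37.2 ± 28.6, followed by Btla with 9.50 ± 9.64 and Tox with 5.00 ± 4.12. From Cd274 downwards, each gene of this order differed from the next by less than the larger of their SDs between tumors. In 66cl4 tumors, the order began with Lgals9 at 359 ± 31.96 (SD, n = 20), Vsir at 294 ± 48.6, Tigit at 175 ± 62.9 and Cd274 at 34.8 ± 9.98 normalized counts per kilobase. Havcr2 with 18.4 ± 7.32, Pdcd1 with 13.8 ± 5.52 and Lag3 with 13.3 ± 6.14 then each lay within an SD of the next, as did Btla with 5.97 ± 3.43, Pdcd1lg2 with 2.93 ± 1.82 and Tox with 1.401 ± 0.70. Tigit thus stood above Cd274 in 66cl4 and below it in 4T1 tumors. Its place depends on the gene model, as the GENCODE exons used here cover 919 bases.

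**Figure D1:**
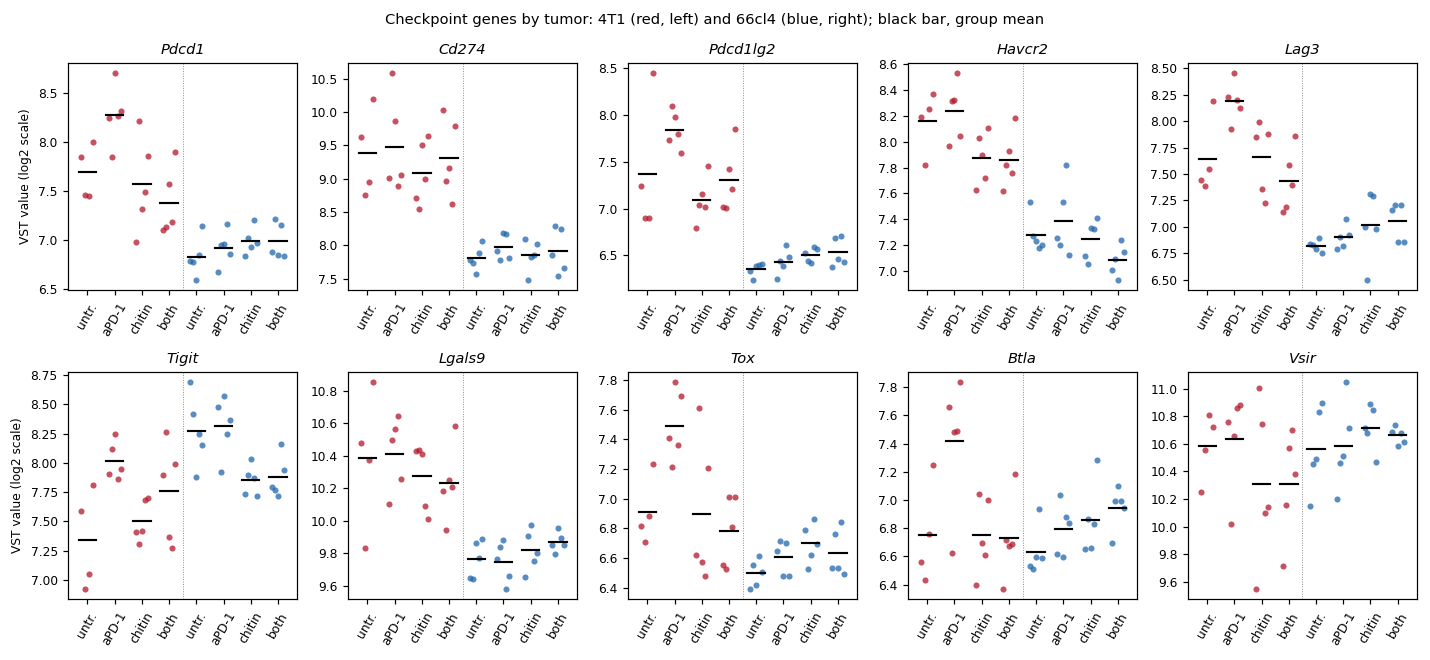
VST values (vertical axes, log2 scale) of the 10 genes in each of the 39 tumors, grouped on the horizontal axes as untreated, anti-PD-1, chitin and both agents, with 4T1 in red, 66cl4 in blue and black bars for group means. All 19 4T1 tumors lie above all 20 66cl4 tumors for Cd274 and Pdcd1lg2, whereas for Tigit 10 of the 19 lie below every 66cl4 tumor.

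The clearest difference in these genes was between the models. Averaged over the 4 treatments, 7 of the 10 genes were higher and 1, Tigit, was lower in 4T1 than in 66cl4 tumors, while Btla and Vsir did not pass the test. Vsir did pass as lower in 4T1 under quantile normalization (-0.24, adjusted p = 0.0436 in limma), with T cell, B cell or adipocyte markers as a covariate (adjusted p = 0.00132, 0.0130 and 0.0284) and without chitin-treated 4T1 tumor 2 (-0.22, adjusted p = 0.0413). This count has to be read against the whole transcriptome, of which 78.8% was called in the same comparison, 40.8% as higher and 38.0% as lower in 4T1. The median difference of the 10 genes was 0.65 on the VST scale, beside 0.01 over all genes. Between untreated tumors alone, the same 7 genes were called higher and Tigit lower, with 55.8% of all genes called (28.7% higher and 27.1% lower in 4T1) and medians of 0.72 and 0.02. Of these 8 calls, that of Tox was lost with T cell markers as a covariate (0.0029, adjusted p = 0.984 in limma), under quantile normalization (adjusted p = 0.105) and without untreated 4T1 tumor 5 (adjusted p = 0.126) or untreated 66cl4 tumor 1 (adjusted p = 0.0515). In a whole tumor, fewer cells of a type and less RNA per cell cannot be told apart.

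Among the ligands, Cd274 gave the largest difference on the VST scale, whereas the ratio of normalized counts was largest for Pdcd1lg2. The untreated 4T1 tumors had 662, 308, 373 and 1045 normalized counts of Cd274, and the untreated 66cl4 tumors had 108, 101, 80.9, 121 and 152. Every untreated 4T1 tumor was above every untreated 66cl4 tumor, as for 22.3% of all genes, while 20.7% had the reverse. All 19 4T1 tumors were also above all 20 66cl4 tumors, as for 9.87% of all genes, while 7.98% had the reverse. The mean of the 4 treatment groups was 4.49-fold higher in 4T1, with a VST difference of 1.43 ± 0.142 (SE, adjusted p = 3.82e-11 in limma), and the untreated difference was 1.58 ± 0.296 (adjusted p = 3.24e-05).

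Pdcd1lg2, the gene of PD-L2, was close to the limit of detection in 66cl4 tumors, with 1 to 16 reads per tumor. Untreated 4T1 tumors had 47.3, 23.5, 23.7 and 228 normalized counts and untreated 66cl4 tumors 2.50, 1.15, 3.52, 3.86 and 4.00. The high value of 4T1 tumor 5 stood apart from the other three, yet even the lowest of these was above all 66cl4 tumors, treated or not. Group means were 12.8-fold higher in 4T1 over the treatments (VST difference 0.94 ± 0.091, adjusted p = 1.84e-11 in limma). For Lgals9, which was abundant in both models, the difference was smaller, with group means 1.54-fold higher in 4T1 (0.53 ± 0.064, adjusted p = 4.08e-09). Of the 19 4T1 tumors, 17 had more Lgals9 than any 66cl4 tumor.

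The receptor gene Pdcd1 differed in the same direction as its ligands. Untreated 4T1 tumors had 117, 68.8, 67.4 and 142 normalized counts of Pdcd1, and untreated 66cl4 tumors 17.5, 17.2, 9.67, 20.6 and 40.0. The untreated groups did not overlap. Over the treatments, Pdcd1 was 4.23-fold higher in 4T1 (0.80 ± 0.087, adjusted p = 4.00e-10 in limma), Havcr2 3.00-fold (0.79 ± 0.064, adjusted p = 2.52e-13) and Lag3 3.89-fold (0.78 ± 0.079, adjusted p = 5.59e-11). Tox, with 3 to 33 reads in 66cl4 tumors, was 3.51-fold higher (0.41 ± 0.075, adjusted p = 8.22e-06). Of the 10 genes, 6 had every untreated 4T1 tumor above every untreated 66cl4 tumor (Pdcd1, Cd274, Pdcd1lg2, Havcr2, Lag3 and Tox), a pattern shown by 22.3% of all genes.

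Tigit, the gene of an inhibitory receptor of T and NK cells, ran the other way. Untreated 4T1 tumors had 82.8, 25.02, 32.8 and 111 normalized counts of Tigit, while untreated 66cl4 tumors had 290, 222, 121, 185 and 167. Every untreated 4T1 tumor was thus below every untreated 66cl4 tumor, as was the case for 20.7% of all genes, and the untreated 66cl4 mean was 3.13-fold higher (VST difference 4T1 minus 66cl4 of -0.93 ± 0.176, adjusted p = 3.30e-05 in limma). Over the treatments the 66cl4 mean was 1.63-fold higher (-0.42 ± 0.084, adjusted p = 2.82e-05). For Btla the difference over the treatments was 0.10 (95% interval -0.07 to 0.28, adjusted p = 0.280 in limma), and for Vsir -0.17 (95% interval -0.38 to 0.04, adjusted p = 0.122).

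**Figure D2:**
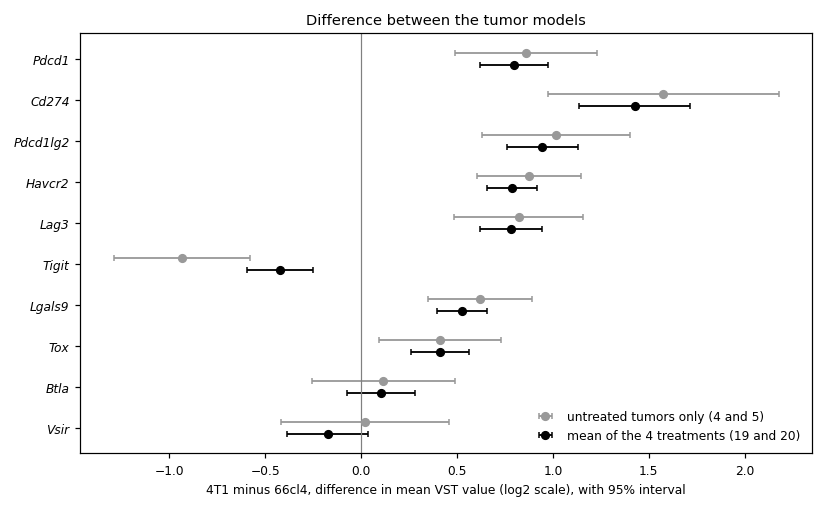
Difference between 4T1 and 66cl4 tumors in mean VST value (horizontal axis, log2 scale, with 95% intervals) for the 10 genes, in untreated tumors (grey) and as the mean over the 4 treatments (black). Intervals lie above 0 for 7 genes and below 0 for Tigit, and those of Btla and Vsir include 0.

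Several markers of the cells that can carry these genes differed between the models as well, and their part in the differences above was not tested further than by the covariate. Of 8 T cell markers, 7 were called higher in 4T1 over the treatments, with a summed level of 277 to 1722 normalized counts in 4T1 and 196 to 411 in 66cl4 tumors, and of 8 macrophage markers all were called lower. With the T cell marker mean of each tumor as a covariate, Pdcd1, Cd274, Pdcd1lg2, Havcr2, Lag3 and Lgals9 were still called higher and Tigit lower in 4T1. With this covariate Tox was at -0.01 (adjusted p = 0.917 in limma), Btla at -0.38 (adjusted p = 0.000169) and Vsir at -0.52. Of the 10 genes, Tigit, Cd274 and Vsir overlap the RefSeq span of another measured gene, each named after values were seen. Tigit shares 8256 bases with Zbtb20, which was also lower in 4T1 (-1.70 ± 0.065, adjusted p = 1.34e-22 in limma), with group means of 1827 to 1936 normalized counts in 66cl4 and 455 to 548 in 4T1 tumors. Cd274 shares 5186 bases with Plgrkt, which was higher in 4T1 (0.17 ± 0.047, adjusted p = 0.00130 in limma), and Vsir lies within Cdh23, which was also higher (0.52 ± 0.056, adjusted p = 3.19e-10). The deviations from group means of Tigit and Zbtb20 had an r of -0.14 over the 19 4T1 and 0.02 over the 20 66cl4 tumors, those of Cd274 and Plgrkt 0.39 and -0.13, and those of Vsir and Cdh23 -0.15 and 0.51. The part of these overlaps in the differences between the models was not tested.

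Genes that work with these checkpoints differed between the models in both directions, and their counts stand beside the 40.8% of all genes called higher and 38.0% called lower. Of 17 measured binding partners of the 10 proteins, 8 were called higher and 5 lower in 4T1 over the treatments, among them Rgmb, a partner of PD-L2, which was lower (-1.49 ± 0.067, adjusted p = 1.73e-20 in limma). Of 15 genes of PD-1 signalling and exhaustion, 5 were higher and 4 lower. Of 8 genes of IFN-γ signalling to Cd274, 6 were higher and 2 lower, with a median of 0.53. The receptor-associated kinase gene Jak2 was higher by 2.14 ± 0.082 (adjusted p = 1.24e-22 in limma), and Irf9, the gene of a transcription factor of the interferon response, by 1.11 ± 0.054 (adjusted p = 2.09e-19). Of 14 other inhibitory or costimulatory genes, 9 were higher and 3 lower. The largest of these differences were in Nt5e (CD73, which makes adenosine; 3.77 ± 0.129, adjusted p = 4.24e-24 in limma) and Cd276 (B7-H3; 2.60 ± 0.060, adjusted p = 3.39e-29), while Cd47, a signal against phagocytosis, was higher by 0.80 ± 0.053 (adjusted p = 1.03e-15).

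Anti-PD-1 alone was compared with no treatment to ask how blocking PD-1 changes the tumors. In 4T1 tumors, all 10 genes had a higher mean VST value after anti-PD-1, by 0.03 to 0.68 with a median of 0.51 beside -0.0005 over all genes, and none was called. limma called 0% of the 14318 genes in this comparison, with 1273 at an unadjusted p below 0.05, and a test of the recovered reads with limma-voom called 0 as well. At an unadjusted p below 0.05, 5 of the 10 genes were higher, a direction and threshold met by 4.52% of all genes. These were the receptor genes Pdcd1, Lag3, Tigit and Btla and the transcription factor gene Tox.

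The 5 anti-PD-1-treated 4T1 tumors had 126, 162, 186, 119 and 132 normalized counts of Tigit, beside 82.8, 25.02, 32.8 and 111 in untreated tumors. All treated tumors were above all untreated ones, as in 0.650% of all genes, and the mean was 2.30-fold higher (VST difference 0.68 ± 0.198, unadjusted p = 0.00307, adjusted p = 0.517 in limma). For Pdcd1, treated tumors had 186, 118, 294, 190 and 201 normalized counts, 4 of the 5 above every untreated tumor, and a 2.01-fold higher mean (0.59 ± 0.228, unadjusted p = 0.0190, adjusted p = 0.520 in limma). Tumor 2 lay inside the untreated range.

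Lag3 was at 182, 128, 230, 177 and 162 normalized counts in anti-PD-1-treated and at 66.2, 61.0, 77.4 and 174 in untreated 4T1 tumors, a 1.86-fold higher mean (0.55 ± 0.192, unadjusted p = 0.0105, adjusted p = 0.517 in limma). Untreated tumor 5 reached into the treated range. Tox was at 63.0, 45.5, 107, 58.9 and 95.2 against 18.9, 14.1, 22.8 and 47.2, or 2.88-fold (0.58 ± 0.202, unadjusted p = 0.00996, adjusted p = 0.517 in limma), and Btla at 91.2, 10.7, 70.4, 71.7 and 115 against 8.28, 4.69, 16.4 and 48.5, or 3.69-fold (0.67 ± 0.221, unadjusted p = 0.00739, adjusted p = 0.517 in limma). In each of these 3 genes, untreated tumor 5 was the highest and tumor 2 the lowest of its group, and in the treated group tumor 2 was again the lowest. The other genes had unadjusted p above 0.05, with mean ratios of 1.45 for Pdcd1lg2, 1.13 for Cd274, 1.09 for Havcr2, 1.05 for Vsir and 1.00 for Lgals9.

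Markers of lymphocytes and of mammary tissue moved with the anti-PD-1 group. All 8 T cell markers were higher in anti-PD-1-treated than in untreated 4T1 tumors at an unadjusted p below 0.05, with a median difference of 0.69, and their summed level ran from 673 to 1722 normalized counts (median 1349), against 319 to 965 (median 454). With the T cell marker mean as a covariate, the differences were -0.13 for Pdcd1, 0.01 for Lag3, -0.01 for Tox and -0.03 for Btla, whereas that of Tigit was 0.48 (unadjusted p = 0.0770 in limma). The 3 measured B cell markers summed to 5.35 normalized counts in treated tumor 2 and to between 183 and 508 in the other treated tumors, against 7.09 to 58.98 in untreated tumors, and with their mean as a covariate Btla was at -0.00. The 5 adipocyte markers summed to 49.5 in treated tumor 2 and to between 2613 and 13906 in the others, against 185 to 1064 untreated, and the part of adipose and glandular tissue in these differences was not tested beyond a covariate for adipocyte markers, with which Tigit was at 0.65. All 6 dendritic cell markers had higher means as well, 4 of them at an unadjusted p below 0.05, with a summed level of 1037 to 1444 normalized counts after anti-PD-1, 596 to 1658 in untreated tumors and 323 to 1001 after the combination, and their mean had an r of 0.96 with Btla over the 19 4T1 and 0.87 over the 20 66cl4 tumors, whose part was not tested. Weighting each tumor by its estimated quality led to calls of Pdcd1, Lag3, Tigit, Tox and Btla (adjusted p = 0.0100 to 0.0459 in limma), with 960 of 14318 genes called in all, and without anti-PD-1-treated tumor 2 Btla was called (0.86, adjusted p = 0.0477) among 80 genes in all.

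Adding chitin to anti-PD-1 was compared with anti-PD-1 alone to ask what chitin, used in the study to counter chitinase-like proteins, adds to checkpoint blockade. In 4T1 tumors, all 10 genes had a lower mean VST value after the combination, by 0.17 to 0.90 in size with a median of -0.45 beside 0.01 over all genes. limma called 0% of all genes, with 1307 at an unadjusted p below 0.05, and limma-voom called 0. At an unadjusted p below 0.05, 6 of the 10 genes were lower, as were 5.59% of all genes. This comparison and the preceding one share the anti-PD-1-treated tumors, so that a high value there enters both.

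Pdcd1 was at 36.8, 38.9, 80.9, 43.1 and 125 normalized counts after the combination, where anti-PD-1 alone gave 118 to 294, a 3.05-fold lower mean (-0.90 ± 0.215, unadjusted p = 0.000543, adjusted p = 0.259 in limma). Only tumor 5 of the combination reached the anti-PD-1 range. Lag3 was at 39.3, 43.2, 82.2, 61.9 and 119 and 2.55-fold lower (-0.75 ± 0.181, unadjusted p = 0.000568, adjusted p = 0.259 in limma), and Tox was at 8.18, 7.21, 30.3, 18.8 and 30.3 and 3.903-fold lower (-0.71 ± 0.190, unadjusted p = 0.00152, adjusted p = 0.274 in limma). For Lag3 and Tox, every combination-treated tumor was below every tumor given anti-PD-1 alone, which was so for 0.684% of all genes. Btla was at 3.27, 14.4, 12.6, 13.1 and 43.1 normalized counts and 4.14-fold lower (-0.69 ± 0.208, unadjusted p = 0.00387, adjusted p = 0.353 in limma). Its groups overlapped through anti-PD-1-treated tumor 2, at 10.7.

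Smaller differences were found in Havcr2 (1.54-fold lower, -0.37 ± 0.135, unadjusted p = 0.0126, adjusted p = 0.422 in limma) and Pdcd1lg2 (2.03-fold lower, -0.53 ± 0.239, unadjusted p = 0.0380, adjusted p = 0.526 in limma). For both, 4 of the 5 combination-treated tumors were below the anti-PD-1 range. Tigit was at 123, 189, 59.4, 50.6 and 139 normalized counts after the combination, with a 1.29-fold lower mean and an unadjusted p above 0.05, and its highest tumor was above all those given anti-PD-1 alone. Cd274, Lgals9 and Vsir had overlapping groups, with means 1.21-, 1.14- and 1.28-fold lower.

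Here, too, lymphocyte markers moved with the genes. All 8 T cell markers were lower after the combination at an unadjusted p below 0.05, with a median difference of -0.92 and a summed level of 277 to 826 normalized counts. With their mean as a covariate, Pdcd1 was at 0.00, Lag3 at -0.08, Tox at 0.04, Btla at 0.19, Pdcd1lg2 at 0.13 and Havcr2 at -0.04. The 8 macrophage markers summed to 5575 to 22765 normalized counts after the combination and to 13996 to 35032 after anti-PD-1 alone, and 5 of them were lower at an unadjusted p below 0.05. Tumor weights led to calls of Pdcd1, Lag3, Tox and Btla (adjusted p = 0.000722 to 0.00681 in limma), as did a fit of both models together (adjusted p = 0.00608 to 0.0306), and without anti-PD-1-treated tumor 2 Pdcd1, Lag3 and Btla were called (adjusted p = 0.0236 to 0.0419). Of all 14318 genes, these 3 settings called 2127, 294 and 202. The fit of both models shares 1 spread per gene between them, so it can understate the spread among 4T1 tumors. The VST SD of Pdcd1 was 0.28 to 0.48 in the 4T1 groups and 0.14 to 0.20 in the 66cl4 groups. For Lag3 these ranges overlapped, at 0.19 to 0.37 and 0.05 to 0.33.

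Compared with untreated 4T1 tumors, those given chitin alone or with anti-PD-1 had no call in these genes, with wide intervals. After chitin alone, the 95% interval was -1.10 to 0.49 for Cd274 and -0.58 to 0.02 for Havcr2. Ratios of mean normalized counts to untreated tumors ran from 0.47 (Pdcd1lg2) to 1.21 (Tox) after chitin alone. After the combination, they ran from 0.66 (Pdcd1) to 1.78 (Tigit). Means and medians differed for both genes named for chitin alone. Median Pdcd1lg2 was 35.5 normalized counts in untreated and 32.4 in chitin-treated tumors. Median Tox was 20.8 and 10.4, lower after chitin, and its VST difference was -0.01. After chitin alone, differences ran from -0.30 to 0.16 and none of the 10 genes had an unadjusted p below 0.05 (0% of all genes called by limma and 0 by limma-voom, 397 at an unadjusted p below 0.05). After the combination, they ran from -0.31 to 0.42, and Tigit was the single gene at an unadjusted p below 0.05 (1.78-fold, 0.42 ± 0.198, unadjusted p = 0.04997, adjusted p = 1.0 in limma), a level that 1.42% of all genes reached as higher. The test called 0% of all genes and limma-voom 0, with 367 at an unadjusted p below 0.05. Combination against chitin alone gave differences between -0.23 and 0.25, with 0% of all genes called, 445 at an unadjusted p below 0.05 and 0 called by limma-voom.

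The mean levels of the remaining genes in the 4T1 groups, in normalized counts with SD over the 4 untreated and 5 otherwise treated tumors, showed the width of the groups. Cd274 averaged 597 ± 336 in untreated, 672 ± 449 in anti-PD-1-treated, 441 ± 186 in chitin-treated and 555 ± 271 in combination-treated tumors. In the same order, Pdcd1lg2 averaged 80.6 ± 98.9, 117 ± 29.4, 37.8 ± 18.4 and 57.7 ± 36.3. For both genes, the largest SD exceeded every difference between the group means. Havcr2 averaged 172 ± 42.4, 187 ± 45.9, 123 ± 30.5 and 121 ± 33.1, Lgals9 1249.7 ± 383, 1247 ± 207, 1123 ± 174 and 1089 ± 198, and Vsir 1423 ± 251, 1496 ± 346, 1220.2 ± 523 and 1171 ± 323. After chitin alone, Pdcd1 averaged 90.2 ± 59.3, Lag3 96.3 ± 41.0, Tigit 74.4 ± 19.5, Tox 31.0 ± 34.2 and Btla 17.9 ± 12.6. Tumor 2 held the highest value of its group for Pdcd1, Lag3, Lgals9, Tox, Btla and Vsir.

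The interaction asked whether the effect of anti-PD-1 in 4T1 tumors differed with chitin present. It was negative in 9 of the 10 genes and lay at an unadjusted p below 0.05 in 4 of them, as in 2.16% of all genes: Pdcd1 (-0.78 ± 0.313), Lag3 (-0.77 ± 0.264), Tox (-0.70 ± 0.277) and Btla (-0.69 ± 0.304). Their adjusted p was 0.927 in limma, which called 0% of all genes, with 648 at an unadjusted p below 0.05, and limma-voom called 0. When the chitin-containing 4T1 groups were set against the other 4T1 groups, all 10 genes were lower, 6 of them at an unadjusted p below 0.05 as for 4.46% of all genes, and 0% of all genes were called (1042 at an unadjusted p below 0.05, 0 by limma-voom). The differences were -0.51 ± 0.157 for Pdcd1, -0.41 ± 0.174 for Pdcd1lg2, -0.33 ± 0.099 for Havcr2, -0.37 ± 0.132 for Lag3, -0.36 ± 0.139 for Tox and -0.35 ± 0.152 for Btla (adjusted p = 0.580 to 0.665 in limma). Tumor weights called Pdcd1 (-0.53, adjusted p = 0.0380) and Btla (-0.48, adjusted p = 0.0431), among 297 genes in all. As these contrasts share tumors with those above, they are no independent support for them.

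**Figure D3:**
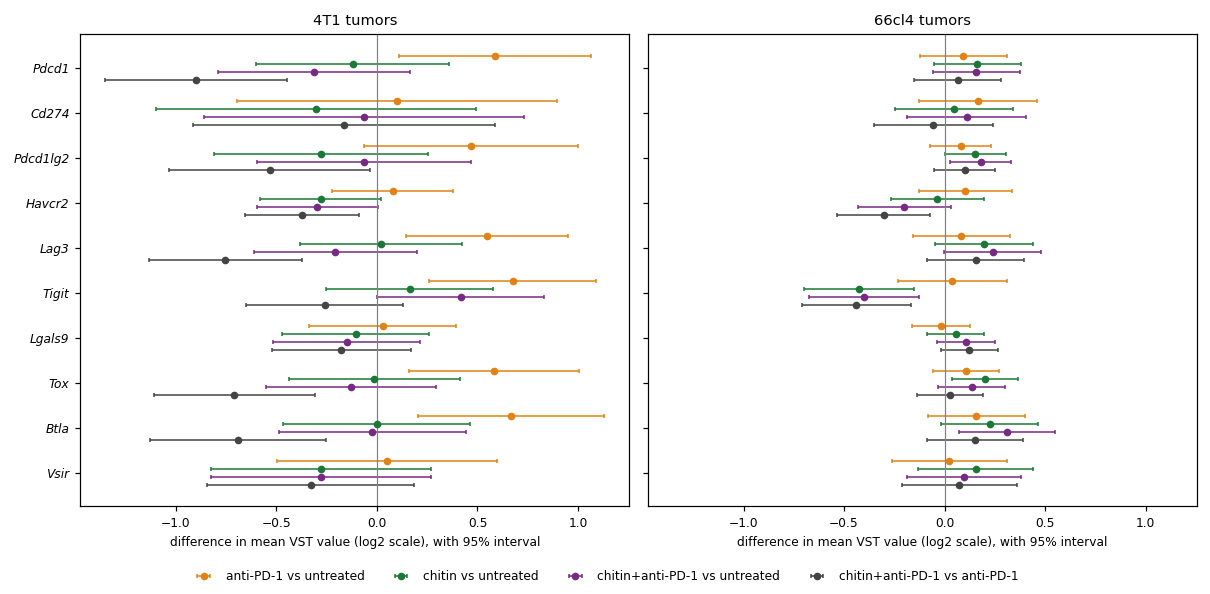
Differences in mean VST value (horizontal axes, log2 scale, with 95% intervals) of the 10 genes in 4T1 (left) and 66cl4 tumors (right) for anti-PD-1, chitin and their combination against untreated tumors and for the combination against anti-PD-1 alone. In 4T1, the combination lies below anti-PD-1 alone for all 10 genes, and in 66cl4 the 3 comparisons with a chitin-containing group lie below 0 for Tigit.

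In 66cl4 tumors, anti-PD-1 alone gave differences between -0.02 and 0.17 over the 10 genes, none at an unadjusted p below 0.05 (0% of all genes called by limma and 0 by limma-voom, 767 at an unadjusted p below 0.05). Pdcd1 was at 12.8, 26.5, 27.3, 41.3 and 21.5 normalized counts in these tumors and at 17.5, 17.2, 9.67, 20.6 and 40.0 in untreated ones, and the groups overlapped. The response to anti-PD-1 was also compared between the models directly, on the VST scale. Lag3 and Tox had fewer counts in 66cl4 tumors, where this scale compresses changes more, and the part of this was not tested. Ratios of mean normalized counts to untreated tumors in 4T1 and 66cl4 were 2.30 and 1.03 for Tigit, 1.86 and 1.25 for Lag3 and 2.88 and 1.55 for Tox. The difference between the responses (4T1 minus 66cl4) was at an unadjusted p below 0.05 for Tigit (0.64 ± 0.242), Lag3 (0.46 ± 0.227) and Tox (0.47 ± 0.216), as higher in 4T1 in 2.98% of all genes, with adjusted p = 0.652 to 0.681 in limma and 0% of all genes called (1041 at an unadjusted p below 0.05, 0 by limma-voom).

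The gene that stood out in 66cl4 tumors was Tigit. After chitin alone, tumors had 100, 124, 147, 120 and 98.9 normalized counts of Tigit, and after the combination 109, 105, 99.2, 169 and 131. Untreated tumors had 290, 222, 121, 185 and 167, and those given anti-PD-1 alone 236, 128, 259, 185 and 210. The 10 chitin-containing tumors ran from 98.9 to 169 and the other 10 from 121 to 290, so that the ranges overlapped, with untreated tumor 3 and anti-PD-1-treated tumor 2 as the low ones without chitin. On the VST scale, Tigit was lower in the chitin-containing groups, with a difference of -0.43 ± 0.093 (unadjusted p = 0.000146, adjusted p = 0.0808 in limma), in a comparison that called 0% of all genes, had 2238 at an unadjusted p below 0.05 and in which limma-voom called 0.

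The difference in Tigit recurred in the comparisons that were made of a chitin-containing 66cl4 group with one without chitin. These share their tumors, and chitin alone was not compared with anti-PD-1 alone. The difference was -0.43 ± 0.131 for chitin and -0.40 ± 0.131 for the combination against untreated tumors, and -0.44 ± 0.131 for the combination against anti-PD-1 alone (adjusted p = 0.232, 0.328 and 0.449 in limma). Mean levels were 1.67-, 1.61- and 1.66-fold lower. Tumor weights led to a call of Tigit in the chitin-containing groups (-0.47, adjusted p = 0.0195 in limma), as did leaving out untreated tumor 3 (-0.48, adjusted p = 0.0195) or anti-PD-1-treated tumor 2 (-0.48, adjusted p = 0.0376). These settings called 185, 269 and 29 genes in all. With the T cell marker mean as a covariate Tigit was at -0.40 (adjusted p = 0.0863), while the T cell markers summed to 239 to 411 normalized counts in chitin-containing and to 196 to 364 in the other 66cl4 tumors. Zbtb20 was at -0.03 ± 0.086 (unadjusted p = 0.737 in limma) in this comparison. Chitin-containing 66cl4 groups also had more reads on average. With all tumors thinned to equal depth, 0 genes were called in this comparison, as without thinning. This count therefore cannot show the part of depth in the difference of Tigit, which was not tested further.

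Other genes had small differences in 66cl4 tumors on the VST scale, which compresses genes with few reads. Ratios of mean normalized counts to untreated tumors after chitin were 2.25 for Pdcd1lg2, 2.13 for Tox, 1.97 for Btla and 1.76 for Lag3. After the combination, they were 2.69, 1.75, 2.28 and 1.80 in the same order. For Havcr2, they were 0.94 and 0.69. In the chitin-containing groups, 3 of the 10 genes were higher and 2 lower at an unadjusted p below 0.05, beside 7.79% and 7.84% of all genes: Pdcd1lg2 (0.13 ± 0.051), Lag3 (0.18 ± 0.082) and Btla (0.19 ± 0.081) were higher and Havcr2 (-0.17 ± 0.078) was lower with Tigit, with adjusted p = 0.246 to 0.306 in limma for these 4. After chitin alone, Pdcd1lg2 (0.15 ± 0.073) and Tox (0.20 ± 0.079) were higher and Tigit was lower than in untreated tumors at this level, reached by 6.17% and 5.28% of all genes in these directions, with 0% called, 1639 at an unadjusted p below 0.05 and 0 called by limma-voom. Pdcd1lg2 was at 7.09, 4.83, 4.21, 9.17 and 8.54 normalized counts after chitin, all above the 1.15 to 4.00 of untreated tumors, as in 0.978% of all genes. At this depth these are a few reads per tumor.

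After the combination, Pdcd1lg2 (0.18 ± 0.073) and Btla (0.31 ± 0.115) were higher and Tigit was lower than in untreated 66cl4 tumors at an unadjusted p below 0.05, beside 5.77% and 4.82% of all genes (0% called, 1516 at an unadjusted p below 0.05, 0 by limma-voom). Against anti-PD-1 alone, Havcr2 (-0.30 ± 0.111) and Tigit were lower at this level, beside 4.48% of all genes (0% called, 1188 at an unadjusted p below 0.05, 0 by limma-voom). Havcr2 was at 30.2, 35.8, 25.5, 47.3 and 39.8 normalized counts after the combination and at 48.8, 44.5, 76.0, 113 and 38.2 after anti-PD-1 alone. The groups overlapped, with 3 of the 5 combination-treated tumors below all those given anti-PD-1 alone. No gene of the 10 reached this level for the combination against chitin alone (0% called, 440 at an unadjusted p below 0.05, 0 by limma-voom) or for the interaction (0% called, 714 at an unadjusted p below 0.05, 0 by limma-voom).

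The means of the abundant genes lay close together in the 66cl4 groups. In the order untreated, anti-PD-1, chitin and combination, mean normalized counts (SD, 5 tumors each) were 744 ± 69.6, 734 ± 72.6, 778 ± 78.2 and 809 ± 39.5 for Lgals9, 1411 ± 319, 1439 ± 353, 1563 ± 187 and 1491 ± 68.6 for Vsir and 113 ± 26.5, 138 ± 31.5, 120.3 ± 32.9 and 133 ± 54.0 for Cd274. Pdcd1 averaged 21.0 ± 11.4, 25.9 ± 10.3, 29.9 ± 9.15 and 30.0 ± 12.2, Lag3 19.3 ± 2.71, 24.1 ± 6.77, 34.0 ± 19.4 and 34.7 ± 12.3, and Havcr2 52.0 ± 13.9, 64.0 ± 30.7, 49.0 ± 12.9 and 35.7 ± 8.45. The rare transcripts Btla (11.8 ± 7.88, 18.95 ± 9.42, 23.3 ± 16.2 and 27.01 ± 8.45) and Tox (6.63 ± 2.68, 10.3 ± 4.08, 14.1 ± 5.70 and 11.6 ± 6.37) had their lowest means in untreated tumors. Groups overlapped for each of these genes.

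The lists of partner genes had no call in any treatment comparison in limma, and the shares of all genes at an unadjusted p below 0.05 stand beside their counts. For anti-PD-1 against untreated 4T1 tumors, 3 of 17 binding partners, 1 of 15 regulators, 0 of 8 IFN-γ signalling genes and 4 of 14 other checkpoint genes were higher at an unadjusted p below 0.05, with median differences of 0.18, 0.19, 0.16 and 0.22, and 1 of the 14 was lower, beside 4.52% of all genes as higher. For the combination against anti-PD-1 alone in 4T1, 7 of 17 partners, 4 of 15 regulators, 0 of 8 IFN-γ signalling genes and 7 of 14 other checkpoint genes were lower, beside 5.59% of all genes, and 1 partner was higher. In the chitin-containing 66cl4 groups, 6 of 17 partners, 2 of 15 regulators, 4 of 8 IFN-γ signalling genes and 4 of 14 other checkpoint genes were higher, and 1 partner and 1 other checkpoint gene were lower, beside 7.79% and 7.84% of all genes.

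Levels of the 10 genes varied together from tumor to tumor to different degrees. The deviations of each tumor from its group mean were correlated within each model with the T cell marker mean, the macrophage marker mean and Ifng, 3 measures chosen after values were seen, which gave 60 relations with permutation p-values adjusted over all of them. Of the 10 genes, 4 passed an adjusted p of 0.05 for Pearson's r with T cell markers in 4T1 (Pdcd1, Lag3, Tox and Btla) and 4 in 66cl4 tumors (Pdcd1, Cd274, Pdcd1lg2 and Tox). For macrophage markers the counts were 4 and 3 and for Ifng 3 and 0, all with a positive r. All measures come from the same libraries, and the reads of one cell type are shared among its genes.

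Pdcd1 followed the T cell markers in both models. Its r was 0.90 over the 19 4T1 tumors (permutation p = 1e-05, the smallest these permutations can give, adjusted p = 0.0003) and its rho 0.89 (permutation p = 3e-05, adjusted p = 0.0018), with r = 0.88 after the 2 tumors farthest in T cell markers were left out. Over the 20 66cl4 tumors, r was 0.79 (permutation p = 0.00023, adjusted p = 0.00197) and rho 0.76 (permutation p = 0.00089, adjusted p = 0.00667), with r = 0.71 without 2 tumors. For Tigit, r with T cell markers was 0.29 in 4T1 (permutation p = 0.284, adjusted p = 0.369) and -0.12 in 66cl4 tumors (permutation p = 0.619, adjusted p = 0.651), and rho was 0.29 (permutation p = 0.279, adjusted p = 0.372) and -0.13 (permutation p = 0.612, adjusted p = 0.633). Without 2 tumors these r were 0.05 and -0.04.

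Cd274 followed Ifng, the gene of IFN-γ, in 4T1 tumors. There r was 0.87 (permutation p = 4e-05, adjusted p = 0.0006) and rho 0.85 (permutation p = 0.00015, adjusted p = 0.0018), and r was 0.84 without the 2 farthest tumors. In 66cl4 tumors, of which several had 0 reads of Ifng, r was 0.35 (permutation p = 0.237, adjusted p = 0.324) and rho 0.22 (permutation p = 0.406, adjusted p = 0.477), with r = 0.00 without 2 tumors. The difference between the models in this relation was not tested. Vsir followed the macrophage markers, with r = 0.87 (permutation p = 4e-05, adjusted p = 0.0006) and rho = 0.81 (permutation p = 9e-05, adjusted p = 0.0018) in 4T1 and r = 0.74 (permutation p = 0.00231, adjusted p = 0.0099) and rho = 0.72 (permutation p = 0.00255, adjusted p = 0.0118) in 66cl4 tumors, and r without 2 tumors was 0.82 and 0.69.

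**Figure D4:**
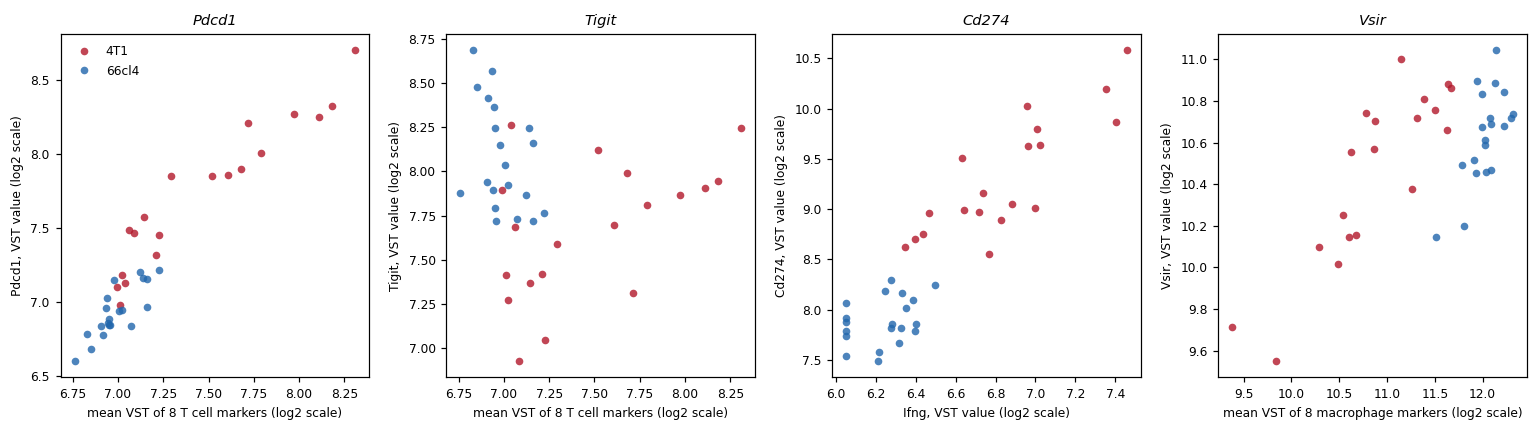
VST values per tumor (log2 scale on all axes) of Pdcd1 and Tigit against the mean of 8 T cell markers, of Cd274 against Ifng and of Vsir against the mean of 8 macrophage markers, with 4T1 in red and 66cl4 in blue. Within models, deviations from group means correlated with r = 0.90 in 4T1 and 0.79 in 66cl4 for Pdcd1 and 0.29 and -0.12 for Tigit.

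Among the 10 genes themselves, deviations over all 39 tumors, which mix both models and share each tumor's library, were most alike for Pdcd1 and Tox (r = 0.79), Lag3 and Tox (0.73) and the neighbouring ligand genes Cd274 and Pdcd1lg2 (0.64). They were least alike for Tigit and Vsir (-0.35). Over all genes, those with the highest r to Pdcd1 were Cd3e (0.91), Pglyrp2 (0.89) and Cd8a (0.87), to Tox Nkg7 (0.84), Cd3d (0.82) and Lck (0.82), and to Lag3 Cd3g (0.73), Tox (0.73) and Slamf8 (0.73). For the ligands, they were Gbp10 (0.91), Gbp6 (0.90) and Mir6381 (0.90) with Cd274, Samhd1 (0.85), Cysltr2 (0.82) and Tnfsf10 (0.81) with Pdcd1lg2, and Oas1a (0.79), Dhx58 (0.76) and Lgals3bp (0.74) with Lgals9. For the other receptors, they were Cxcl16 (0.71), Cyfip2 (0.68) and Tent5c (0.66) with Havcr2, Serpinb9b (0.75), Twist2 (0.74) and C1s1 (0.68) with Tigit, Septin3 (0.92), Clec9a (0.90) and Tlr11 (0.89) with Btla, and Fcgr3 (0.88), C1qa (0.87) and C1qc (0.87) with Vsir. Within single models the genes could differ. Highest with Cd274 were Gbp3 (0.96), Gbp10 (0.96) and Mir6381 (0.95) in 4T1, but Il2rg (0.89), Psap (0.83) and Mpeg1 (0.81) in 66cl4. With Lgals9 they were Lgals3bp (0.86), Ddx60 (0.85) and Dhx58 (0.84) in 4T1, but Elof1 (0.85), Prpf38a (0.84) and Mrm1 (0.84) in 66cl4. In 66cl4, r stayed high for Cd3e with Pdcd1 (0.85) and Septin3 with Btla (0.87).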

How the data were processed

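RNA of whole primary tumors was sequenced as stranded paired-end libraries. The authors aligned the reads with HISAT2 to mm10, counted them per gene with strand information, left out genes with few counts and 1 untreated 4T1 tumor for degraded RNA, and deposited variance-stabilized values from DESeq2, a log2 scale, for 14318 genes in 39 of 40 tumors. Version numbers and the gene annotation are not given in the sources used here. No per-sample column was left unused (0).

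Inverting the transformation gave whole reads for 100.0% of values (tolerance 0.001). The lowest value, 6.0514, stands for 0 reads. The VST values were compared with limma 3.58.1 (R 4.3.3, mean-variance trend), with the 4 groups of a model in 1 fit for comparisons within it and all 8 groups for comparisons between models. P-values were adjusted over 14318 genes by the Benjamini-Hochberg method, with a threshold of 0.05. Scripts were tested on simulated data. Lengths came from GENCODE M21 exons and positions from RefSeq. Tables, permutations and plots used Python 3.11.15, numpy 2.4.6, pandas 2.3.3, scipy 1.17.1 and matplotlib 3.10.9. The precision of low genes is limited by the depth of 5105898 to 14800352 reads.

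The 10 genes and all lists were chosen with earlier results of these data known. A gene of the IFN-γ signalling list is not reported here. All 10 genes were named. Tests were given where the unadjusted p was below 0.05 and for all 10 between the models, listed genes past an adjusted p of 0.05 could be named (up to 6 per comparison by smallest p), and the 3 most alike genes were named for each. Other named genes were chosen after their values were seen. Tumors came from individually caged mice, and p-values measure the spread between tumors. Since cells were given into a gland pair, tumors of a group may share a mouse. The labels do not name the mouse, so the tests took tumors as independent. Alternatives were median centring, quantile normalization, leaving out the 25% lowest genes, no trend, tumor weights, limma-voom on reads, thinning to equal depth, fewer or more groups in the fit, a replicate block, T cell markers as a covariate and leaving out each tumor. B cell and adipocyte markers as covariates were added after seeing the data.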

Additional observations from a re-analysis of the deposited data

Results flagged for a closer look

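In 3 of the 80 combinations of gene and group, 1 tumor stood apart from the others of its group by Dixon's criterion, which chance alone meets in about 1 in 20 groups. Havcr2 was at 76.3 normalized counts in untreated 66cl4 tumor 1, where the next highest tumor had 50.4. Btla was at 25.8 normalized counts in untreated 66cl4 tumor 4, with 9.67 in the next. Vsir was at 907 normalized counts in anti-PD-1-treated 4T1 tumor 2, the lowest of its group, with 1487 in the next. The same tumor had the lowest summed T cell, B cell, macrophage and adipocyte markers of its group.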

How the results depend on the processing

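Under alternatives other than leaving out a tumor, 619 values of single genes in single comparisons kept their direction and side of the threshold. With the direction kept, 20 newly passed it and 2 no longer did. Another 28 changed sign, whichever side they then lay on. With T cell markers as a covariate, these included Tox over the treatments, no longer called (adjusted p = 0.917 in limma). They also included Btla, newly called over the treatments (adjusted p = 0.000169) and between untreated models (adjusted p = 0.0210). Tumor weights raised the number of the 10 genes called from 0 to 5 for anti-PD-1 against untreated 4T1 tumors, to 4 for the combination against anti-PD-1, to 2 for the chitin-containing 4T1 groups and to 1 each for the chitin-containing 66cl4 groups (Tigit) and the response to anti-PD-1 between models (Btla), and both models in 1 fit raised it to 4 for the combination against anti-PD-1. Weights called 960 and 2127 genes of all in the first pair of comparisons, where 0 were called without. Leaving out each tumor in turn gave 0 to 1, 0 to 3 and 0 to 1 called for anti-PD-1 and the combination in 4T1 and for the chitin-containing 66cl4 groups, with the higher numbers without anti-PD-1-treated 4T1 tumor 2 or without untreated tumor 3 or anti-PD-1-treated tumor 2 of 66cl4. Without the 25% lowest genes, which left 5 of the 10 in the test, 4 rather than 8 were called in both comparisons between models.

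Signs changed mainly with T cell markers as a covariate. Values were then -0.13 for Pdcd1, -0.011 for Tox and -0.030 for Btla after anti-PD-1 in 4T1, 0.0024 for Pdcd1, 0.13 for Pdcd1lg2, 0.037 for Tox and 0.19 for Btla for the combination against anti-PD-1, 0.093 for Pdcd1, 0.024 for Tox and 0.16 for Btla for the interaction, 0.025 for Tox and 0.11 for Btla in the chitin-containing groups, -0.0086 for Lag3 and -0.038 for Tox for the response between models, -0.35 for Btla and -0.32 for Vsir between untreated models, and -0.0087 for Tox and -0.38 for Btla over the treatments. With B cell markers, Btla was at -0.0047 after anti-PD-1, 0.037 for the interaction and -0.0054 over the treatments. With adipocyte markers, Vsir was at -0.012 between untreated models and Btla at -0.039 over the treatments. Between untreated models, quantile normalization gave -0.0023 for Btla and -0.071 for Vsir, median centring -0.0070 and tumor weights -0.039 for Vsir, and leaving out each tumor -0.050 to 0.22 for Btla and -0.083 to 0.13 for Vsir. Over the treatments, quantile normalization gave -0.040 for Btla. Between untreated models Tox missed the threshold with T cell markers as a covariate (0.0029, adjusted p = 0.984 in limma), under quantile normalization (0.28, adjusted p = 0.105 in limma), without untreated 4T1 tumor 5 (0.30, adjusted p = 0.126) and without untreated 66cl4 tumor 1 (0.39, adjusted p = 0.0515). The causes were not tested.

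Tumors that share a number in the labels had a mean r of 0.01 over 27 pairs in 4T1 and 0.06 over 30 pairs in 66cl4, beside -0.00 and -0.01 for other pairs, and 3 of 19 and 8 of 20 tumors correlated best with one of their own number. Since the labels name no shared batch and some pairs had a negative r (lowest -0.39 and -0.30), the numbers were not taken as pairs, and the values in 66cl4 are a hint from the data only. With a replicate block, the number called among the 10 genes stayed at 0 for the comparisons of treatments and at 8 for both comparisons between models. Among all genes, the block called 16 for the chitin-containing 66cl4 groups, 7 for the combination and 2 for chitin against untreated 66cl4 tumors, and 1 each for the combination in 4T1 against untreated tumors and against anti-PD-1, where 0 were called without it. Using only the compared groups gave no separate value for the interactions, the chitin-containing groups or the mean over the treatments. Depth limits Pdcd1lg2, Tox and Btla in 66cl4 tumors, where single tumors had a few reads.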
